A study of Mus musculus with 20 samples.

Results

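Intestinal fibroblasts fall into subtypes that were defined in adult tissue by a small set of marker genes. The genes described here are 9 such markers, *Adamdec1*, *Pdgfra*, *Cd34*, *Cd81*, *Ackr4*, *F3*, *Pi16*, *Dpt* and *Sox6*, taken by symbol from the 43280 gene symbols that were counted in every RNA-seq library, together with the accessible regions at their promoters. Embryonic libraries came from GFP+ mesenchymal cells sorted from the stomach and intestine of embryos at E13.5, labelled C57BL/6, although the methods give mixed backgrounds for the *Eed*fl and *Rosa26*mTmG alleles. Control embryos were *Bapx1*-cre;*Rosa26*mTmG and *Eed* KO embryos were *Eed*fl/fl;*Bapx1*-cre;*Rosa26*mTmG, with 2 libraries for each organ and genotype. Adult libraries, 2 labelled WT and 2 labelled EED-KO, came from GFP+ stromal cells of the small intestine, which came from *Pdgfrβ*-CreERT2/+;*Rosa26*mTmG mice without (control) or with *Eed*fl/fl after a course of tamoxifen. ATAC-seq peaks were deposited as 1 list for each of the 4 embryonic conditions.

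All groups carried a Cre driver and the mTmG reporter, so GFP marked cells in which the driver had been active at some time. *Bapx1*-cre acts in gut mesenchyme from early development, and *Pdgfrβ*-CreERT2 acts only in cells that express *Pdgfrβ* when tamoxifen is given. Both organs were taken from each embryo, so libraries of different organs may share embryos. Adult villi were scraped off and discarded before sorting. *Eed* encodes a core subunit of Polycomb Repressive Complex 2 (PRC2), which methylates histone H3 and keeps developmental genes silent.

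Subepithelial telocytes are PDGFRA-high cells under the epithelium that make BMP ligands and noncanonical Wnt ligands, and *F3* and *Sox6* are among their markers. Trophocytes are PDGFRA-low cells below the crypts that carry CD81 and ACKR4 and secrete BMP antagonists and R-spondins. *Adamdec1* marks fibroblasts of the lamina propria. *Pi16*, *Dpt* and *Cd34* mark fibroblasts around vessels and in deeper layers, and CD34 is also found on endothelium. None of these subtypes was sorted separately here, and in bulk samples fewer cells of a type and less RNA per cell cannot be told apart.

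Counts on genes ranged from 30236159 to 39606157 per embryonic library and from 11404712 to 15903642 per adult library, and no pair of libraries was identical. Expression is given as CPM, the count scaled to the TMM-adjusted library size, with n = 2 libraries per group throughout. A gene was called when its log2 fold change exceeded 1 in either direction at an adjusted p below 0.05 in the quasi-likelihood F-test of edgeR, and each ± after a log2 fold change is its SE. The methods call the libraries biological replicates, and no source used here says which animals each one holds, so p-values measure the spread between these libraries. With n = 2, the libraries of 2 groups can lie apart without a difference between the groups. The share of all genes whose groups did not overlap was not counted. *Eed* itself was at 38.1 to 41.5 CPM in the embryonic control libraries and at 7.40 to 11.5 CPM in the embryonic *Eed* KO libraries. In the adult, *Eed* was at 29.7 and 33.4 CPM in the control libraries and at 25.7 and 25.05 CPM in the libraries labelled EED-KO, a log2 difference of -0.32 ± 0.21 (edgeR adjusted p = 0.317) that was not called. On the TPM scale, without TMM, adult *Eed* was at 34.8 and 38.1 TPM in the control and at 21.2 and 18.6 TPM in the EED-KO libraries, which do not overlap. The targeted gene was thus lower in the embryonic *Eed* KO libraries of both organs (log2 fold change -2.02 ± 0.21 in the intestine and -2.11 ± 0.21 in the stomach, both called). In the adult, both EED-KO libraries were below both control libraries on either scale. The size of that difference depended on the scale, it was not called in CPM, and no test was run on TPM. Directions in the adult are those of the libraries labelled EED-KO.

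Adult libraries of the 2 genotypes also differed in RNA of cell type markers. A list of 7 macrophage genes summed to 615 and 878 CPM in the control libraries and to 16309 and 18053 CPM in the EED-KO libraries, and 7 of 7 were called higher. A list of mesenchymal genes (*Col1a1*, *Col1a2*, *Col3a1*, *Vim*, *Pdgfrb* and *Nkx3-2*) summed to 10179 and 10939 CPM in the control libraries and to 3171 and 4629 CPM in the EED-KO libraries. Replicate 2 of the EED-KO libraries also held 4476.97 CPM of *Cela2a*, a pancreatic elastase noted after its values were seen, against 43.2 to 155 CPM in the other adult libraries. In the embryonic libraries the macrophage list summed to 4.55 to 12.8 CPM and the mesenchymal list to 12364 to 23613 CPM.

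To see how open the promoters of these genes were in the embryonic mesenchyme, the deposited peaks within 1000 bp of each transcription start were examined. ATAC-seq marks regions where a transposase can reach DNA, and CpG-rich promoters are commonly open in all tissues. *F3* (chromosome 3, 121723537 to 121735052, plus strand) and *Cd81* (chromosome 7, 143052739 to 143067934, plus strand) had the most CpG-rich promoters, and *Cd34* (chromosome 1, 194938819 to 194961279, plus strand) and *Dpt* (chromosome 1, 164796644 to 164824266, plus strand) had CpG-poor promoters. Sequences upstream of these 4 starts are shown, 5′ to 3′, to set CpG-rich beside CpG-poor promoters, with CG dinucleotides in capitals. They come from RefSeq (GRCm38.p6, plus strand) at chr3:121723287-121723536, chr7:143052500-143052738, chr1:194938571-194938818 and chr1:164796413-164796643.
*F3*: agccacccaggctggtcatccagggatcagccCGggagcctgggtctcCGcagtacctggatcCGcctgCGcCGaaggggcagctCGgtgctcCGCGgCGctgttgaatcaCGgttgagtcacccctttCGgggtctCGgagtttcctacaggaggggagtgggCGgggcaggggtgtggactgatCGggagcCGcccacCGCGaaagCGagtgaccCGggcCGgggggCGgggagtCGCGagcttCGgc
*Cd81*: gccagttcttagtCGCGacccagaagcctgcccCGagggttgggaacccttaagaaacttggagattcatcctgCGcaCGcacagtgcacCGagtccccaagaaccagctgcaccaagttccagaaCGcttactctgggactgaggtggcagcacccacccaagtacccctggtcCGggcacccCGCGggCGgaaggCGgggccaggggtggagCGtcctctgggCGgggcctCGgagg
*Cd34*: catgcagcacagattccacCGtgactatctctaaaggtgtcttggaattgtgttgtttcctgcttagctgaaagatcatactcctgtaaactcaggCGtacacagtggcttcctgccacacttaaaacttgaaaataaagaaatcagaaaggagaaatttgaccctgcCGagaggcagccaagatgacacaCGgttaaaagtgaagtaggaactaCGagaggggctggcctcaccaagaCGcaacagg
*Dpt*: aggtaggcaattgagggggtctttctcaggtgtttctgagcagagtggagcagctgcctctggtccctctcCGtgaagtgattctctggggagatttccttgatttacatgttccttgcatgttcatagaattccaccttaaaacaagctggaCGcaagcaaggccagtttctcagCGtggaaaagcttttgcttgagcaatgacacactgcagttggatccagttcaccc
The stretch before *F3* held 24 CG dinucleotides in 250 bases and that before *Cd81* held 15 in 239 bases. The stretch before *Cd34* held 6 in 248 bases and that before *Dpt* held 3 in 231 bases.

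RefSeq windows of 300 bases, 250 before and 50 after the start, were found for 8 of the 9 genes, all but *Adamdec1*. Across 11281 genes that were tested for expression and had a window, the median was 20 CG dinucleotides and the middle 50% ran from 12 to 29. *F3* had 32 and *Cd81* had 23, both above the median. *Sox6* had 11, *Ackr4* 10, *Cd34* 7, *Pdgfra* 5, *Dpt* 4 and *Pi16* 3, all below the lower quartile. Of the letters searched on both strands, TATAAA was found in the windows of 4 of the 8 genes (*Cd81*, *Ackr4*, *F3* and *Dpt*) and in 14.2% of all 27025 windows, and only the *Ackr4* match lay before the RefSeq start. GGGCGG was found in *Cd81* and *F3* and in 35.9% of all windows, and CCAAT in *Pi16* and in 38.0% of all windows.

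A promoter peak was listed for 8 of the 9 genes in the control intestine, where 88% of all genes tested had such a peak, and for 7 in the *Eed* KO intestine, where 89.1% did. It was listed for 6 of the 9 genes in the control stomach, against 88.4% of all genes, and for 7 in the *Eed* KO stomach, against 89.1%. *Adamdec1*, *Pdgfra*, *Cd34*, *Cd81*, *F3* and *Sox6* had a promoter peak in all 4 lists. *Ackr4* had none within 1000 bp in any list, and its nearest peaks began 1986 to 2090 bp downstream of the start and ended at -3263 to -3052 bp upstream of it. With 1 list per condition from pooled replicates there is no test of a difference between lists.

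**Figure D1:**
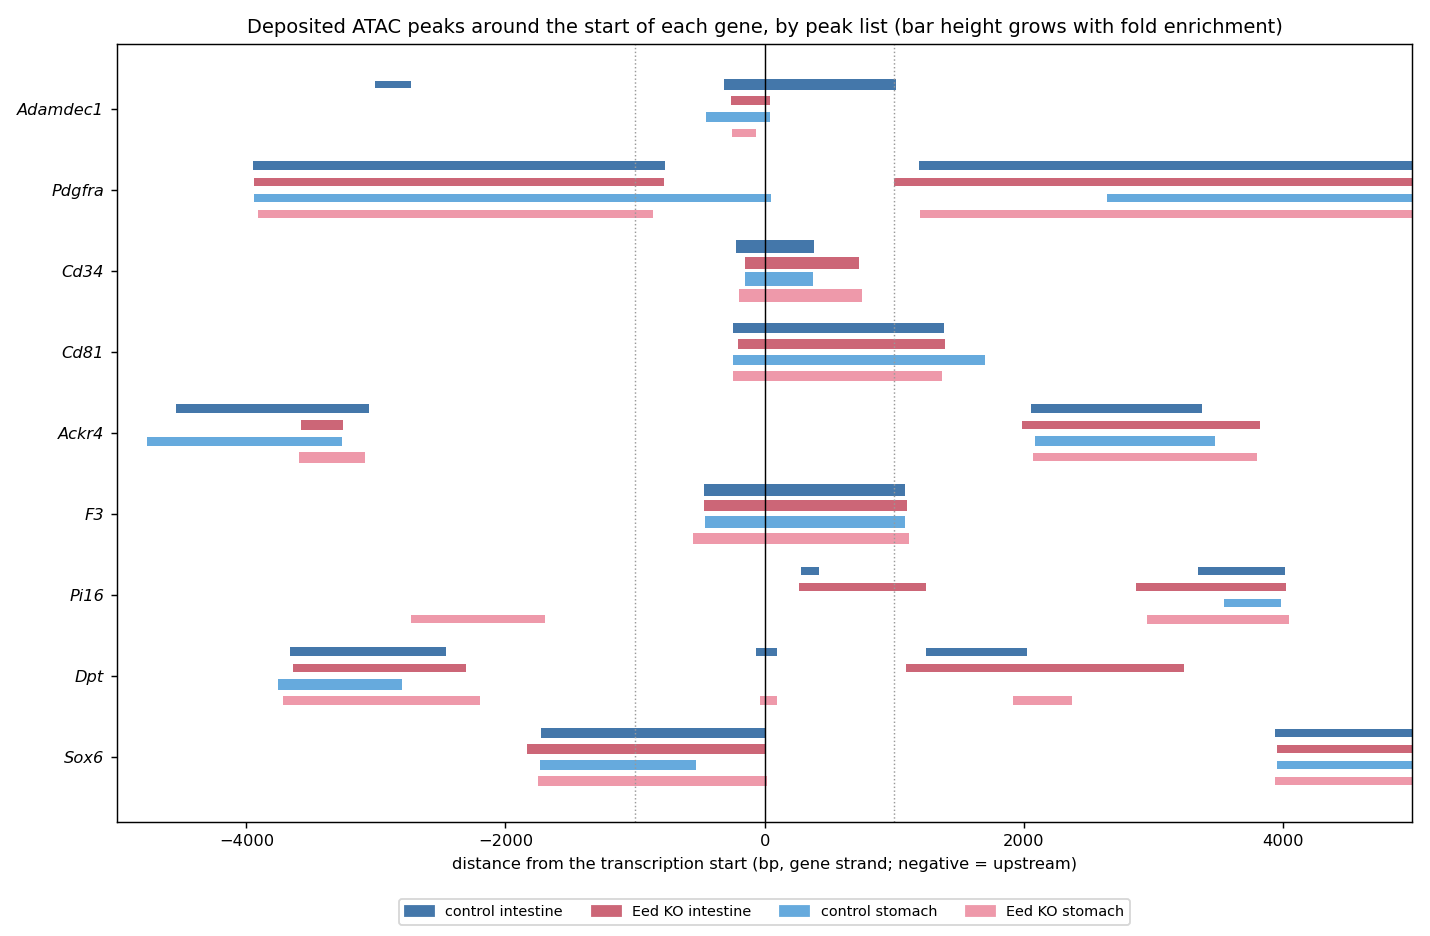
Deposited ATAC-seq peaks within 5000 bp of the transcription start of each gene, drawn along the gene's strand (x axis, bp from the start) for the 4 embryonic peak lists, with taller bars for higher fold enrichment. *Cd34*, *Cd81* and *F3* have a peak over the start in all 4 lists, *Ackr4* has none within 1000 bp (dotted lines), and the *Pdgfra* peaks stretch far to both sides of the start.

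Peaks lay over the starts of *Cd34*, *F3* and *Cd81* in all 4 lists. MACS2 fold enrichment at *Cd34* was 8.98 in the control intestine, 8.36 in the *Eed* KO intestine, 11.1 in the control stomach and 8.74 in the *Eed* KO stomach, at least at the 94.9th percentile of each list. *Cd34* thus had a strong peak at its start at a stage when its RNA stood at 6.29 to 22.8 CPM. The *F3* peak had fold enrichments of 7.57, 6.29, 7.48 and 6.45 in the same order, and the *Cd81* peak of 5.49, 5.66, 5.94 and 5.77. In the control intestine the *F3* peak stood at the 90.4th percentile of the list and the *Cd81* peak at the 75.8th. A second *Cd81* peak, which began 15940 to 16027 bp from the start and so past the end of the gene, was higher than the first, at 6.86 to 7.75.

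*Adamdec1* (chromosome 14, 68563388 to 68582086, minus strand) had a promoter peak of fold enrichment 5.64 over 1330 bp in the control intestine, 4.15 over 302 bp in the *Eed* KO intestine, 4.57 over 496 bp in the control stomach and 3.29 over 184 bp in the *Eed* KO stomach. The control intestine had the highest and longest peak and the *Eed* KO stomach the lowest and shortest.

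*Pdgfra* (chromosome 5, 75152291 to 75198204, plus strand) lay between 2 long and shallow peaks. The upstream peak spanned 3050 to 3990 bp with fold enrichments of 2.75 to 3.00, and it reached the start itself only in the control stomach. In the other lists it ended at -864 to -769 bp. *Sox6* (chromosome 7, 115471344 to 116038744, minus strand) had an upstream peak of fold enrichment 5.07 to 5.49, which reached the start in all lists but that of the control stomach. Its gene, the longest of the 9, held 31 to 39 peaks in each list with 5000 bp to either side.

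*Dpt* and *Pi16* were the least open of the genes with any promoter peak. *Dpt* had a peak of 159 bp in the control intestine (fold enrichment 2.68) and of 130 bp in the *Eed* KO stomach (3.24), and none in the other 2 lists. A second region between -3756 and -2199 bp from the *Dpt* start was listed in all 4 conditions, with a fold enrichment of 4.08 in the control intestine, 3.01 in the *Eed* KO intestine, 6.65 in the control stomach and 4.21 in the *Eed* KO stomach. The control stomach was the highest of the 4. *Pi16* (chromosome 17, 29318877 to 29329413, plus strand) had a weak peak just inside the gene in the control intestine (2.69) and in the *Eed* KO intestine (2.17), and none in the stomach. With a -log10 q of at least 2, the promoter peaks of *Pi16* and the *Dpt* peak of the control intestine were lost and 6, 6, 6 and 7 of the 9 genes kept one.

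To ask whether the markers already differed between the organs, control intestine was compared with control stomach. *Dpt*, which encodes dermatopontin, a matrix protein that binds collagen and decorin, was 15.7-fold lower in the intestine, and *Adamdec1* and *F3* had higher means there. *Dpt* was the single call among the 9 genes, against 5.07% of the 16218 genes tested. All 9 genes passed the filter on low counts, which was applied over all embryonic groups, so a gene could pass through the group where it was high. *Pi16* did not pass in a fit of the control organs alone, and *Dpt* did not pass in a fit of the intestinal groups alone. Passing the filter therefore says nothing of the *Dpt* difference. The median log2 fold change of the 9 genes was -0.42, against 0.00 for all genes tested.

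*Dpt* was at 0.0843 and 0.202 CPM in the control intestine libraries (3 and 6 counts) and at 1.54 and 2.91 CPM in the control stomach libraries (53 and 114 counts). All intestinal libraries were thus near the limit of detection and all stomach libraries above 1 CPM. The log2 fold change was -3.97 ± 0.51 (edgeR adjusted p = 0.00425), and leaving out each library in turn gave -4.67 to -3.43. From summed counts alone the stomach level was 16.8 times the intestinal level, with an exact 95% counting interval of 8.63 to 37.3. That interval covers counting error only and leaves out the spread between libraries. Lymphatic endothelial genes summed to 8.99 and 13.2 CPM in the control intestine and to 27.5 and 40.4 CPM in the control stomach, with 2 of 5 called lower and 1 called higher in the intestine. Most of these sums was *Flt4*, at 5.37 and 9.69 CPM in the intestine and 25.2 and 38.2 CPM in the stomach. The part of the lymphatic endothelial genes in the *Dpt* result was not tested.

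*Adamdec1*, which encodes a secreted metalloprotease, was at 127 and 185 CPM in the control intestine and at 36.6 and 103 CPM in the control stomach. The groups did not overlap, but the 2 stomach libraries were far apart. The log2 fold change of 1.16 ± 0.50 (edgeR adjusted p = 0.292) was not called. It was called without the low-count filter (adjusted p = 0.0421) and with a block by embryo pool (adjusted p = 0.0236).

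*Cd81*, which encodes a tetraspanin of the plasma membrane, was at 248 and 249 CPM in the control intestine and at 316 and 361 CPM in the control stomach. The difference was small, at a log2 fold change of -0.45 ± 0.10 with an edgeR adjusted p of 0.0377, and did not reach the fold threshold. Leaving out any 1 of the 4 libraries raised the adjusted p to between 0.0772 and 0.258. At an adjusted p under 0.05 with any fold, 2 of the 9 genes (*Cd81* and *Dpt*) passed, against 6.83% of all genes tested.

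*Pdgfra*, the receptor for platelet-derived growth factor, was already high in the embryo. It was at 904 and 884 CPM in the control intestine and at 1199.4 and 1199.2 CPM in the control stomach, a log2 difference of -0.42 ± 0.12 (edgeR adjusted p = 0.0912). *Sox6*, a transcription factor of the SoxD group, was at 17.8 and 25.9 CPM in the control intestine and at 31.9 and 38.9 CPM in the control stomach (log2 difference -0.70 ± 0.22, adjusted p = 0.126). *F3*, which encodes tissue factor, the initiator of coagulation, was at 11.9 and 9.22 CPM and at 6.90 and 6.32 CPM in the same groups (0.68 ± 0.19, adjusted p = 0.0922). *Cd34* was at 6.29 and 8.78 CPM and at 12.1 and 10.5 CPM (-0.58 ± 0.18, adjusted p = 0.126). In these 4 genes the groups did not overlap and the difference was not called. No share of all genes without overlap was counted to set beside them.

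*Ackr4* (chromosome 9, 104084157 to 104126933, minus strand), which encodes a receptor that takes up chemokines without signaling through G proteins, was at 0.280 to 0.572 CPM in the 4 control libraries, from 11 to 17 counts. *Pi16*, which encodes a peptidase inhibitor, was at 0.102 to 0.269 CPM, from 4 to 9 counts. Both genes overlapped between the organs and were not called (edgeR adjusted p = 0.864 for *Ackr4* and 0.945 for *Pi16*), and such low counts leave their differences uncertain.

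**Figure D2:**
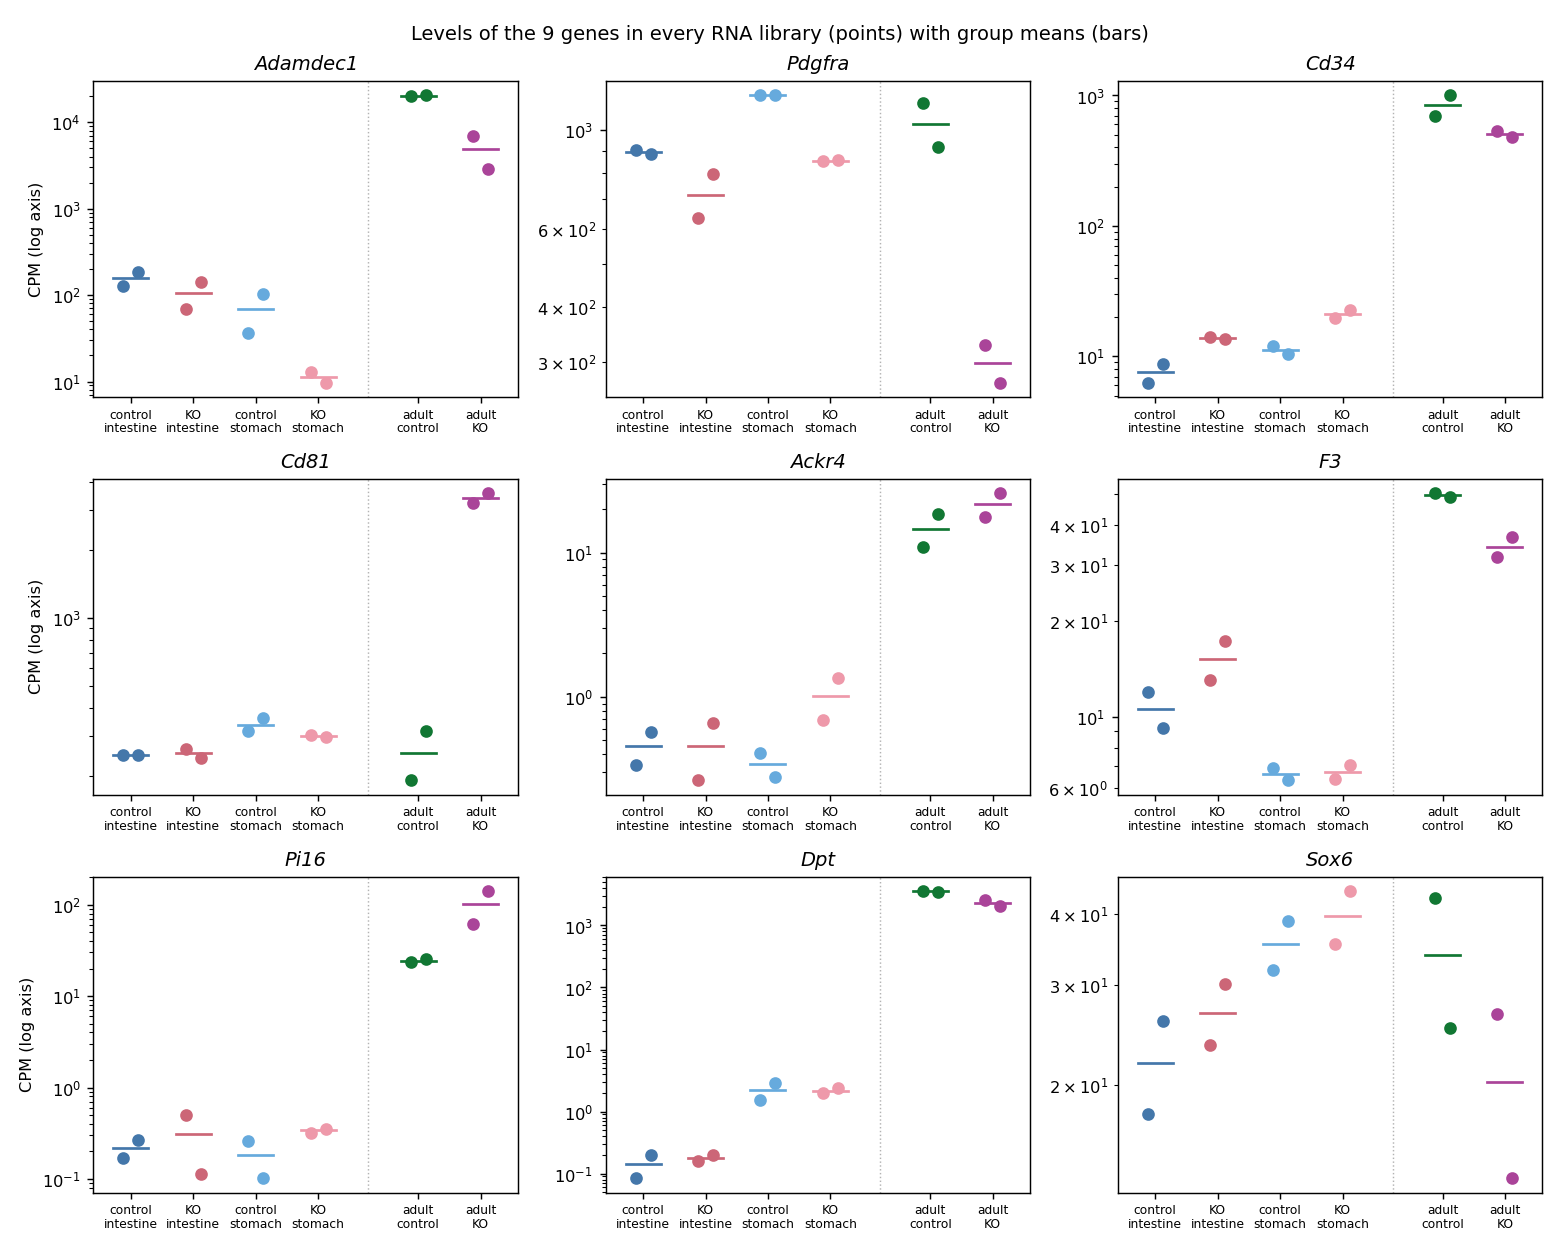
CPM (y axis, log scale, set separately for each gene) of the 9 genes in each of the 12 RNA-seq libraries by group, with the 2 libraries of a group as points and their mean as a bar, and with embryonic groups left and adult groups right of the dotted line. *Dpt* separates the embryonic organs, *Adamdec1* is lowest in the *Eed* KO stomach, and *Cd81* stands at 3218 and 3559 CPM in the adult EED-KO libraries alone.

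To determine how the markers responded to PRC2 loss in the embryo, *Eed* KO was compared with control in each organ. In the intestine none of the 9 genes was called by edgeR, against 2.61% of all genes tested, and none by DESeq2. At an unadjusted p under 0.05, 3 of the 9 genes passed, *Pdgfra*, *Cd34* and *F3*. The share of all genes under that limit was not counted, so the 3 cannot be set against it. In the stomach *Adamdec1* was 6.19-fold lower than in the control and was the single call, against 5.65% of all genes tested. The median log2 fold change of the 9 genes was 0.30 in the intestine and 0.03 in the stomach, against 0.01 and 0.00 for all genes.

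*Adamdec1* was at 36.6 and 103 CPM in the control stomach and at 12.8 and 9.71 CPM in the *Eed* KO stomach. Both *Eed* KO libraries were below both control libraries. The log2 fold change was -2.63 ± 0.54 (edgeR adjusted p = 0.0271). *Adamdec1* was still called by DESeq2 (adjusted p = 0.00106). The call was lost without control replicate 2 (-1.70, adjusted p = 0.122), without *Eed* KO replicate 1 (-2.85, adjusted p = 0.0866) and without *Eed* KO replicate 2 (-2.45, adjusted p = 0.161), and with a spike-in factor in DESeq2 (-3.26, adjusted p = 0.103). It was also lost under scaling by the added spike-in RNA (adjusted p = 0.632). Under that scaling the median log2 fold change over all genes became 1.85 (intestine) and 2.39 (stomach), and relative to that shift *Adamdec1* was at -2.77 in the stomach. Macrophage genes were few and moved in both directions, with list sums of 5.79 and 7.04 CPM in the control and 4.55 and 6.52 CPM in the *Eed* KO stomach. Of the 3 that passed the filter, *Lyz2* was called lower (-1.08 ± 0.21, edgeR adjusted p = 0.0230), and *Csf1r* (2.74 ± 0.72, adjusted p = 0.0626) and *Cd68* (0.98 ± 0.38, adjusted p = 0.182) were not called. *Ptprc* had no count in any stomach library. Their part in the *Adamdec1* value was not tested.

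In the intestine *Adamdec1* was at 127 and 185 CPM in the control and at 68.8 and 143 CPM in the *Eed* KO libraries, which overlap (log2 fold change -0.55 ± 0.50, edgeR adjusted p = 0.783). The effect in the intestine minus that in the stomach was 2.08 ± 0.72 on the log2 scale, with an adjusted p of 0.671. It was not called, and no other of the 9 genes was called in this interaction contrast by edgeR or by DESeq2, against 0.462% of all genes tested. At an unadjusted p under 0.05, for which no share of all genes was counted, *Adamdec1* was the 1 gene that passed. It was called in the interaction without the low-count filter (adjusted p = 0.0490) and with a block by embryo pool (adjusted p = 0.112, under the limit of 0.2 used for this contrast).

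*Cd34*, a sialomucin of the cell surface, was higher in the *Eed* KO libraries of both organs without reaching the fold threshold. It was at 6.29 and 8.78 CPM in the control intestine and at 14.04 and 13.7 CPM in the *Eed* KO intestine (log2 fold change 0.88 ± 0.18, edgeR adjusted p = 0.0497). In the stomach it was at 12.1 and 10.5 CPM in the control and at 19.8 and 22.8 CPM in the *Eed* KO libraries (0.92 ± 0.18, adjusted p = 0.0229). The groups did not overlap in either organ. Leaving out any 1 library raised the adjusted p to between 0.0742 and 0.267 in the intestine and between 0.0502 and 0.161 in the stomach. At an adjusted p under 0.05 with any fold, 1 of the 9 genes passed in the intestine, against 3.06% of all genes, and 3 of the 9 passed in the stomach (*Cd34*, *Adamdec1* and *Pdgfra*), against 7.91%.

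Summed endothelial genes were also higher in the *Eed* KO libraries of both organs. Their list (*Pecam1*, *Cdh5*, *Kdr*, *Tek*, *Emcn*, *Plvap* and *Cldn5*) summed to 16.7 and 20.9 CPM in the control intestine and to 52.8 and 53.0 CPM in the *Eed* KO intestine, with 3 of 7 genes called higher. In the stomach it summed to 14.6 and 15.8 CPM in the control and to 26.3 and 48.5 CPM in the *Eed* KO libraries, with 5 of 7 genes called higher. No gene of the list was at 0 in all libraries of a group. In other comparisons the list and *Cd34* went opposite ways. For intestine minus stomach the list median was 1.80 in the control (*Cd34* -0.58) and 0.90 in the *Eed* KO (*Cd34* -0.62). For adult EED-KO minus control it was 0.52 (*Cd34* -0.75). The part of the endothelial list in the *Cd34* values was not tested.

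*Pdgfra* was at 634 and 797 CPM in the *Eed* KO intestine and at 851 and 856 CPM in the *Eed* KO stomach, each below the 2 control libraries of its organ. The log2 fold change was -0.32 ± 0.12 in the intestine (edgeR adjusted p = 0.266) and -0.49 ± 0.12 in the stomach (adjusted p = 0.0498), both short of the fold threshold. In the stomach leaving out any 1 library raised the adjusted p to between 0.158 and 0.210. *F3* was at 13.1 and 17.2 CPM in the *Eed* KO intestine (log2 fold change 0.52 ± 0.19, adjusted p = 0.256) and at 6.41 and 7.05 CPM in the *Eed* KO stomach (0.03 ± 0.19, adjusted p = 0.953).

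The remaining genes were not called in either organ. *Cd81* was at 264 and 242 CPM in the *Eed* KO intestine and at 304 and 300 CPM in the *Eed* KO stomach. *Sox6* was at 23.5 and 30.1 CPM in the *Eed* KO intestine and at 35.4 and 43.9 CPM in the *Eed* KO stomach, overlapping the control in both organs. *Dpt* was at 0.158 and 0.1997 CPM in the *Eed* KO intestine and at 1.96 and 2.36 CPM in the *Eed* KO stomach. *Ackr4* ranged from 0.264 to 1.34 CPM and *Pi16* from 0.114 to 0.501 CPM over the *Eed* KO libraries, and the largest difference among them, a log2 fold change of 1.57 ± 0.56 for *Ackr4* in the stomach, was not called (edgeR adjusted p = 0.145).

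When *Eed* KO intestine was compared with *Eed* KO stomach, 3 of the 9 genes were called, against 4.4% of all genes tested. *Dpt* was again lower in the intestine (log2 fold change -3.57 ± 0.48, edgeR adjusted p = 0.00687), with 6 and 7 counts in the intestinal libraries and 73 and 86 in the stomach libraries. *Adamdec1* was 9.41-fold higher in the *Eed* KO intestine (3.23 ± 0.55, adjusted p = 0.0160), and the call was lost without either *Eed* KO stomach library (adjusted p = 0.0717 without replicate 1 and 0.111 without replicate 2). *F3* was 2.25-fold higher in the *Eed* KO intestine (1.17 ± 0.19, adjusted p = 0.0142), and it was no longer called without *Eed* KO intestine replicate 2 (log2 fold change 0.96), without *Eed* KO stomach replicate 1 (adjusted p = 0.0817) or replicate 2 (adjusted p = 0.0693), in a fit of these 2 groups alone (adjusted p = 0.0554), or under spike-in scaling. Smooth muscle genes differed between the same groups, with 4 of 7 called higher in the intestine and sums of 3260 and 5559 CPM against 1832 and 2077 CPM. Their part in the *F3* and *Adamdec1* values was not tested.

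**Figure D3:**
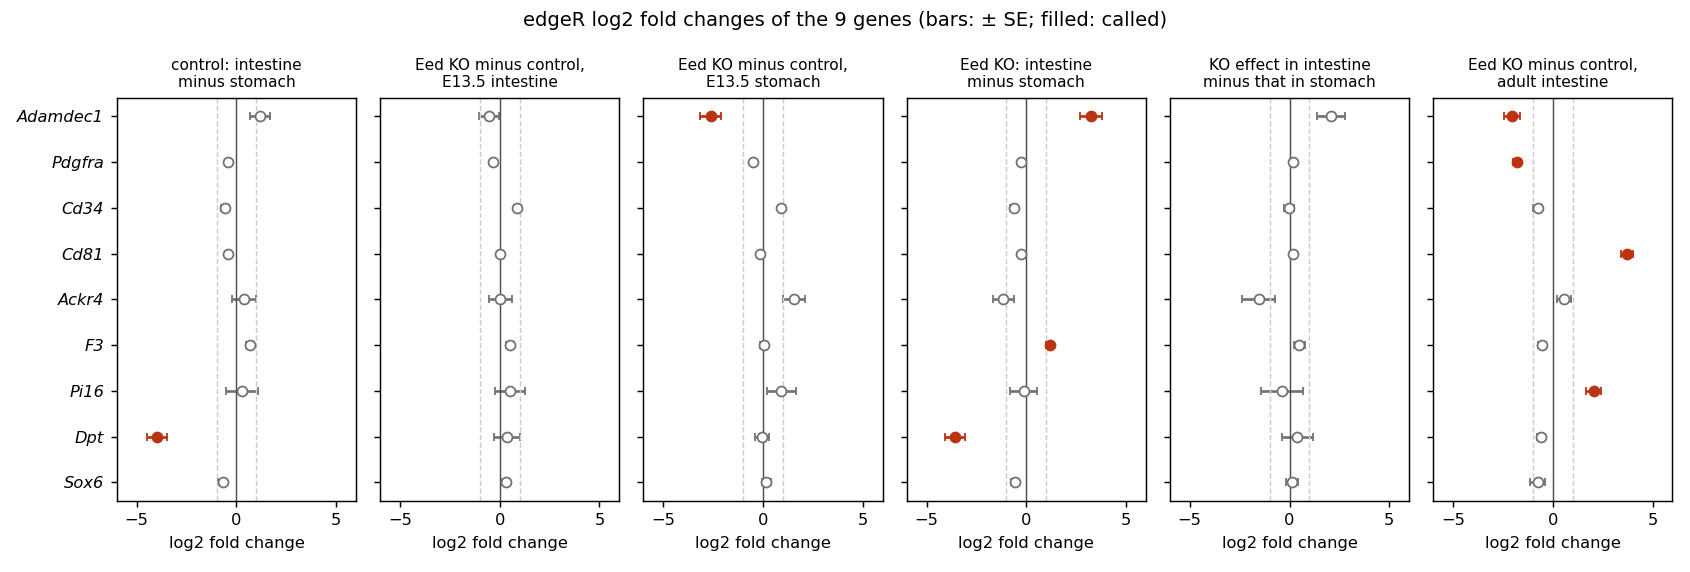
edgeR log2 fold changes (x axis, ± SE) of the 9 genes in the 6 comparisons, with filled points for called genes, a solid line at 0 and dashed lines at the fold threshold of 1. No gene is called in the *Eed* KO intestine at E13.5 or in the difference of the *Eed* KO effects between the organs, and 4 of the 9 are called in the adult.

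Genes with the embryonic pattern most like that of the called markers were found by Pearson's r of log2 CPM over the 8 embryonic libraries, among 13385 genes with a mean of at least 1 CPM. *Adamdec1* was most like *Pbk* (r = 0.994), *Nde1* (0.985) and *Ska1* (0.985). *F3* was most like *Tpm1* (0.977), *Fstl4* (0.977) and *Speg* (0.976), and *Dpt* was most like *Pdgfd* (0.995), *Dsel* (0.992) and *Cdo1* (0.991). The 8 points share 4 groups of 2, and r was at least 0.9 for 212 genes with *Adamdec1*, 112 with *F3* and 371 with *Dpt*. The sizes differed, since the mean of *Pbk* fell only from 49.8 to 34.1 CPM between the highest and the lowest group while that of *Adamdec1* fell from 156 to 11.3 CPM.

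Further genes of the same subtypes were examined as lists. Of all 16218 genes tested, 273 were called higher and 549 lower in control intestine relative to control stomach (5.07%). The *Eed* KO intestine had 386 higher and 37 lower (2.61%), and the *Eed* KO stomach 785 and 131 (5.65%). Between the *Eed* KO organs 237 were higher and 477 lower in the intestine (4.4%). Among 10 telocyte genes, 2 were called higher in control intestine relative to control stomach, *Bmp3* (log2 fold change 3.18 ± 0.45), a BMP ligand, and *Nrg1* (1.20 ± 0.25), an EGF family ligand. The list median was 0.65, against 0.00 for all genes. In the *Eed* KO organs *Bmp5* (1.42 ± 0.12) and *Postn* (1.76 ± 0.37), which encodes periostin, were called higher in the intestine. In the stomach *Frzb*, a secreted Wnt antagonist, rose in the *Eed* KO (1.64 ± 0.18). No telocyte gene was called in the *Eed* KO intestine, where 2.61% of all genes were called. There 2 of 10 were at an unadjusted p under 0.05, a limit for which no share of all genes was counted.

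Of 8 trophocyte genes, *Rspo2* (-1.45 ± 0.31), an R-spondin, and *Wnt2b* (-1.23 ± 0.25), a Wnt ligand, were lower in control intestine relative to control stomach, and the list median was -0.31. In the *Eed* KO stomach *Cxcl12*, a chemokine, rose (1.20 ± 0.14) and *Rspo1* fell (-1.07 ± 0.19). No trophocyte gene was called in the *Eed* KO intestine by edgeR, where 2.61% of all genes were called. There 3 of 8 were at an unadjusted p under 0.05, again with no share of all genes counted. Of the adventitial genes, 8 of 11 passed the filter in the embryo, and *Col15a1*, a basement membrane collagen, rose in the *Eed* KO of both organs (2.43 ± 0.35 in the intestine and 2.70 ± 0.35 in the stomach). *Cd55* (1.29 ± 0.13) and *Sema3c* (1.09 ± 0.25) rose in the *Eed* KO stomach and were lower in the *Eed* KO intestine than in the *Eed* KO stomach (-1.37 ± 0.13 and -1.29 ± 0.25). *Igfbp6* was lower in control intestine relative to control stomach (-2.36 ± 0.42). Of the lamina propria genes, 6 of 7 passed the filter, and *Dcn* (-1.81 ± 0.29) and *Apoe* (-1.24 ± 0.24) were lower in control intestine relative to control stomach, as was *Apoe* in the *Eed* KO comparison of the organs (-1.44 ± 0.24).

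Adult control cells were then set beside embryonic control cells of the intestine, in TPM, which divides each count by the length of its gene before scaling. The stages differ in the kit, strandedness, Cre driver and sort, so their values stand side by side with no test. *Adamdec1* was at 21361 ± 86.7 TPM (SD, as after every TPM value) in the adult control and had the highest mean of all genes there, while in the embryonic control intestine it was at 193 ± 54.9 TPM. *Dpt* was at 5252 ± 239 TPM in the adult control, the 16th highest mean, and at 0.250 ± 0.150 TPM in the embryonic control intestine. *Cd34* was at 299 ± 68.8 TPM in the adult and 3.10 ± 0.79 TPM in the embryo, and *F3* at 67.7 ± 2.68 TPM and 16.9 ± 2.69 TPM. *Pi16* (15.7 ± 0.41 TPM) and *Ackr4* (7.09 ± 2.44 TPM), both under 1 TPM in the embryo, were detected in every adult library with at least 149 counts.

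In contrast, *Pdgfra*, *Cd81* and *Sox6* stood at like levels at both stages. *Pdgfra* was at 395 ± 71.6 TPM in the adult control and at 397 ± 2.64 TPM in the embryonic control intestine, *Cd81* at 286 ± 94.4 TPM and 328 ± 8.17 TPM, and *Sox6* at 9.86 ± 3.79 TPM and 7.40 ± 2.11 TPM. By mean TPM the order in the adult control was *Adamdec1*, *Dpt*, *Pdgfra*, *Cd34*, *Cd81*, *F3*, *Pi16*, *Sox6* and *Ackr4*, in which *Cd34* overlapped *Pdgfra* and *Cd81*, and *Sox6* overlapped *Ackr4*. In the embryonic control intestine the order was *Pdgfra*, *Cd81*, *Adamdec1*, *F3*, *Sox6*, *Cd34*, *Ackr4*, *Dpt* and *Pi16*, and the last 3 were not distinguishable at 3 to 17 counts per library. The sort driver *Nkx3-2* (also called *Bapx1*) was at 13.46 to 36.9 CPM in the embryonic and had 1 count in each adult group.

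**Figure D4:**
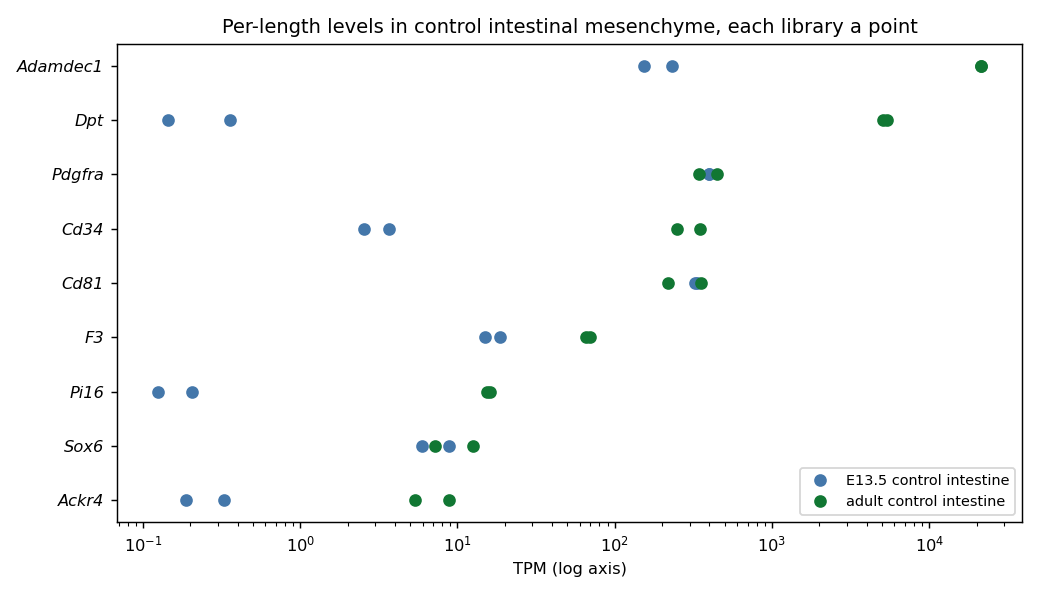
TPM (x axis, log scale) of the 9 genes in the 2 control libraries of the embryonic intestine and the 2 of the adult intestine, ordered by the adult mean. *Adamdec1*, *Dpt* and *Cd34* lie far apart between the stages, while *Pdgfra*, *Cd81* and *Sox6* nearly coincide.

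To compare the markers between genotypes in adult stromal cells, libraries labelled EED-KO were set against adult control libraries. *Cd81* and *Pi16* rose, and *Adamdec1* and *Pdgfra* fell, so 4 of the 9 genes were called against 19.6% of all 15039 genes tested. Both directions were common, with 12.3% of all genes called higher and 7.23% called lower. The median log2 fold change of the 9 genes was -0.61, against 0.00 for all genes. All 9 passed the filter.

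*Cd81* was at 192 and 317 CPM in the adult control libraries and at 3218 and 3559 CPM in the EED-KO libraries. It was 13.3-fold higher (log2 fold change 3.74 ± 0.30, edgeR adjusted p = 0.000322). *Pi16* was at 23.6 and 25.2 CPM in the control and at 61.9 and 141 CPM in the EED-KO libraries (2.06 ± 0.38, adjusted p = 0.00880), and leaving out each library in turn gave 1.34 to 2.51. The EED-KO libraries were above the control in both genes, and for *Pi16* replicate 2 was far above replicate 1.

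*Adamdec1* was at 19970 and 20427 CPM in the adult control libraries and at 6863 and 2863 CPM in the EED-KO libraries (log2 fold change -2.05 ± 0.39, edgeR adjusted p = 0.0107). *Pdgfra* was at 1153 and 917 CPM in the control and at 327 and 270 CPM in the EED-KO libraries (-1.79 ± 0.22, adjusted p = 0.00180). In both genes every EED-KO library was below every control library, and the 2 EED-KO libraries differed from each other by more for *Adamdec1* than for *Pdgfra*.

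*Dpt* (3592 and 3465 CPM in the control, 2562 and 2058 CPM in the EED-KO libraries), *Cd34* (701 and 1002 CPM, 533 and 483 CPM) and *F3* (50.2 and 48.8 CPM, 31.6 and 36.6 CPM) had lower values in the EED-KO libraries and no overlap between the groups. Their log2 fold changes of -0.61 ± 0.20, -0.75 ± 0.23 and -0.54 ± 0.20 were not called (edgeR adjusted p = 0.0678, 0.0564 and 0.0926). No share of all genes without overlap was counted in the adult either. *Sox6* (42.7 and 25.2 CPM, 26.7 and 13.7 CPM) and *Ackr4* (10.9 and 18.4 CPM, 17.7 and 25.8 CPM) overlapped between the groups and were not called (adjusted p = 0.206 and 0.272).

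Markers of other cell types moved with these values. All 7 macrophage genes rose, with *Ptprc* at 60.8 CPM on average in the control and 1001 CPM in the EED-KO libraries, and 4 of 5 lymphatic endothelial genes rose (list sums of 58.3 and 62.5 CPM against 604 and 824 CPM). Most of the lymphatic sum was *Ccl21a*, at 49.0 and 52.3 CPM against 485 and 790 CPM. Of 7 endothelial genes *Pecam1* (log2 fold change 1.43 ± 0.21) and *Cldn5* (2.61 ± 0.62) were called higher and 5 were not called, with a list median of 0.52. Of the smooth muscle genes 3 of 7 rose (list sums of 1869 and 2318 CPM against 3206 and 3795 CPM). *Col1a1* (-1.65 ± 0.29), *Col1a2* (-1.31 ± 0.24) and *Col3a1* (-1.60 ± 0.25), collagens of fibroblasts, fell, as did 3 of 6 pericyte genes (list sums of 11490 and 13366 CPM against 3197 and 4437 CPM). Most of the pericyte sum was *Rgs5*, at 11315 and 13184 CPM against 3069 and 4333 CPM. Of the 3 pericyte genes not called, *Cspg4* had a negative value and *Notch3* and *Mcam* positive ones. No gene of the macrophage list was at 0 in either group.

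Of the mesenchymal list 3 of 5 genes tested fell, all collagens, while *Vim* (-0.19 ± 0.20) and *Pdgfrb* (-0.65 ± 0.21) were not called. The adult comparison was also scaled by the summed counts of the mesenchymal list, most of them collagen counts, an alternative chosen after these values were seen. Under that scaling the log2 fold change of *Adamdec1* was -0.68 ± 0.40 (edgeR adjusted p = 0.143) and that of *Pdgfra* was -0.34 ± 0.39 (adjusted p = 0.446), and neither was called. *Cd81* (5.25 ± 0.50) and *Pi16* (3.64 ± 0.51) remained called, and *Ackr4* was called higher (2.11 ± 0.47, adjusted p = 0.00141). *Cd34* (0.74), *F3* (0.97), *Dpt* (0.84) and *Sox6* (0.64) changed sign without being called. All values under this scaling stand beside a median of 1.48 over all genes tested, of which 9474 were called higher and 137 lower.

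Per 1000 counts of the mesenchymal list, *Pdgfra* had 113 and 83.8 counts in the adult control and 70.8 and 85.0 in the EED-KO libraries, which overlap. *Adamdec1* had 1962 and 1867 in the control and 1483 and 903 in the EED-KO libraries, *Dpt* 353 and 317 against 553 and 649, and *Cd81* 18.8 and 29.0 against 695 and 1122. Relative to this mostly collagen RNA the *Cd81* values were higher in the EED-KO libraries and called, while the *Adamdec1* and *Dpt* values did not overlap and were not called. The part of macrophages, which carry CD81, in the *Cd81* value was not tested.

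**Figure D5:**
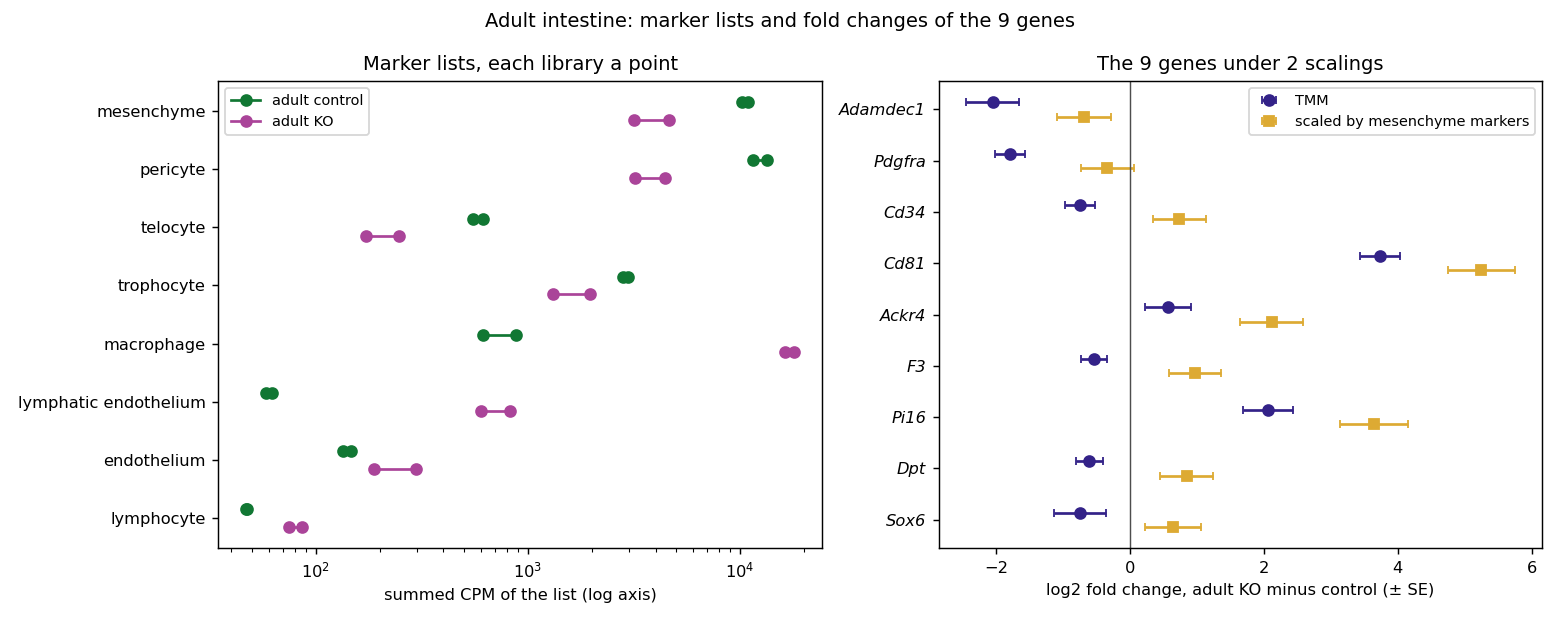
Left, summed CPM (x axis, log scale) of 8 marker lists in the 2 adult control and 2 EED-KO libraries; right, edgeR log2 fold changes (± SE) of the 9 genes in the adult with TMM scaling and with scaling by the mesenchymal list. The macrophage sum stands at 16309 and 18053 CPM in the EED-KO libraries against 615 and 878 CPM in the control. The second scaling raises all 9 values, beside a median of 1.48 over all genes tested. Negative values such as those of *Adamdec1* and *Pdgfra* therefore lie nearer 0 and the positive ones of *Cd81* and *Pi16* farther from it.

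Of 10 telocyte genes 8 were called lower and none higher, where 7.23% of all genes were called lower and 12.3% higher. The list median was -1.95, against 0.00 for all genes. The 4 with the largest change were *Frzb* (-2.77 ± 0.66), *Bmp7* (-2.56 ± 0.47), *Bmp3* (-2.47 ± 0.46) and *Bmp5* (-2.46 ± 0.50), an antagonist of Wnt and 3 BMP ligands. Of 8 trophocyte genes 4 were called lower, the chemokine *Cxcl12* (-1.79 ± 0.22), the Wnt ligand *Wnt2b* (-1.77 ± 0.36) and the R-spondins *Rspo2* (-1.51 ± 0.31) and *Rspo3* (-1.07 ± 0.25), with a list median of -0.69. The telocyte genes fell beside the collagens given above.

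Lamina propria and adventitial lists moved in both directions, beside 12.3% of all genes called higher and 7.23% called lower. Of 7 lamina propria genes *Apoe* (3.99 ± 0.31), *Ccl8* (2.77 ± 0.22) and *Fabp5* (2.72 ± 0.44) were called higher, and *Ccl11* (-1.61 ± 0.23), an eosinophil chemokine, was called lower. *Apoe*, an apolipoprotein, and *Ccl8*, a chemokine, are also made by macrophages. Of 11 adventitial genes *Dpp4* (3.38 ± 0.23), a surface peptidase also found on lymphocytes, and *Mfap5* (1.16 ± 0.25), a microfibril protein, were called higher with *Pi16*, and *Col15a1* (-1.77 ± 0.28) and *Clec3b* (-1.16 ± 0.18), a tetranectin gene, were called lower. The list medians were -0.39 and -0.79, against 0.00 for all genes. Lymphocyte markers summed to 46.8 and 47.4 CPM in the control and 74.9 and 86.4 CPM in the EED-KO libraries, but 1 of 7 was called higher (*Cd79b*) and 1 lower (*Cd79a*), with a list median of -0.09. Their part in the *Dpp4* value was not tested.

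Some exons of these genes overlap those of other genes in GENCODE vM21. *Ackr4* shares 479 exonic bases with *Acad11* on the opposite strand, 8.90% of its exonic bases, and *Pdgfra*, *Cd34*, *Cd81* and *Pi16* overlap noncoding genes on the opposite strand over 1.66% to 4.55% of theirs. Adult counts were made without strand, so reads from these stretches cannot be told apart by strand there.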

How the data were processed

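RNA-seq and ATAC-seq were made from sorted mouse gut mesenchyme. Per the labels and the study's methods, the authors aligned RNA-seq reads with STAR 2.5.1b to mm10 and summarised them on GENCODE vM4 genes with featureCounts (1.5.0 in the adult file headers, where the methods name a later release for the adult data); the deposited values are raw counts per gene symbol, unstranded in the adult. For ATAC-seq, the authors pooled replicates, aligned with BWA 0.7.8 and called broad peaks with MACS2 2.1.2. As deposited, each peak carries a fold enrichment (a ratio over background) and a -log10 q. Peak lists give no read counts, so their depth is unknown.

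Counts were TMM scaled and tested with edgeR 4.0.16 (quasi-likelihood F-test, filterByExpr, Benjamini-Hochberg over all genes tested) in R 4.3.3, with 4 group means for the 8 embryonic and 2 for the 4 adult libraries. The SE is the log2 fold change divided by the square root of F. The thresholds (adjusted p 0.05, 0.2 for the interaction, log2 fold change 1) are those of the study. Tested on simulated data with 200 genes changed 4-fold, the fit found 84.5% of them in the comparison of *Eed* KO with control in the E13.5 intestine (2 false calls, 16218 genes) and 61.5% in the adult one (14 false calls, 15039 genes). Smaller changes, nearer the fold threshold, were not simulated. The 200 genes were raised and lowered in equal number, with no wide shift in RNA content. In the adult data 19.6% of genes were called, so the simulated rates need not hold for that comparison. TPM used gene lengths of the adult files. Promoters were taken within 1000 bp of the outermost annotated start in the files. The 9 genes, the lists and the tests were chosen with earlier results of these data known. Named genes are the 9 markers, up to 4 called genes per subtype list and direction (group mean of 1 CPM or more), and the 3 genes most like each marker called between 2 embryonic groups. 1 list gene, the macrophage marker *Adgre1*, was found under its older symbol. Alternatives were DESeq2 1.42.0 without and with 1 spike-in factor, other scalings, no filter, replicate blocks, leaving out libraries, and other peak thresholds. Interaction SEs and all p-values rest on 2 libraries per group, and counting intervals leave out the spread between libraries.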

Additional observations from a re-analysis of the deposited data

Results flagged for a closer look

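The following values were singled out because both *Eed* KO libraries lay on one side of both control libraries at E13.5 and on the other side in the adult. With so few libraries, groups can lie apart without an effect of genotype. The share of all genes that met this rule was not counted, so the values carry no weight beyond the rule itself. *Cd34* had a log2 fold change of 0.8818 in the E13.5 intestine and of -0.746 in the adult intestine. *F3* had 0.5166 in the E13.5 intestine and -0.5378 in the adult intestine. None of these 4 values was called, and the difference between the stages was not tested, since the stages were made with different kits and Cre drivers. Under scaling by mesenchymal genes, which moved the median of all genes by 1.48, the adult values were 0.74 and 0.97, both under that median.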

How the results depend on the processing

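Across 645 log2 fold changes of the 9 genes under other settings, no call changed direction when spike-in values were taken relative to their median shift. Calls under spike-in scaling were made before that shift was subtracted. *Pdgfra* and *Cd81* in the *Eed* KO stomach, below 0 relative to the shift, were thus called higher there and are counted as gained calls. 575 kept their direction and their side of the thresholds, 14 lost a call, 19 gained one, and 37 changed sign with neither value called. All 16 promoter counts stayed within 1.5 times the reported one, and the causes of the changes were not tested. Between the control organs 1 gene was called, and 2 were called without the low-count filter (*Adamdec1* added), with a block by embryo pool (*Adamdec1* added) and without the fold threshold. In the *Eed* KO intestine 0 were called, 1 without the fold threshold, and 5 under spike-in scaling. In the *Eed* KO stomach 1 was called, 0 with DESeq2 and a spike-in factor, 8 under spike-in scaling (all but *Adamdec1*) and 3 without the fold threshold. The spike-in counts include the median shifts of 1.85 and 2.39. Leaving out 1 library gave 0 to 1 calls there, with 0 without control replicate 2, *Eed* KO replicate 1 or *Eed* KO replicate 2. Between the *Eed* KO organs 3 were called, with 1 to 3 on leaving out a library and 1 without either stomach library. In the interaction 0 were called, and 1 without the low-count filter and with a block by embryo pool. In the adult 4 were called, and 4 to 5 on leaving out a library. The 3 called under the scaling by mesenchymal genes, chosen after seeing the data, were *Cd81*, *Ackr4* and *Pi16*. No source used here says that a replicate number marks the same embryos. Deviations of same-numbered libraries had correlations of 0.265 (control organs), 0.628 (*Eed* KO organs), 0.0993 and 0.0470 (genotypes, intestine and stomach) and -0.0604 (adult). With a block by replicate number, 1 gene was called between the control organs, 0 in the *Eed* KO intestine, 1 in the *Eed* KO stomach, 3 between the *Eed* KO organs, 0 in the interaction and 4 in the adult, so the block changed no count. Among all genes in the *Eed* KO intestine, 386 were called higher and 37 lower, against 628 and 57 by DESeq2, 734 and 66 without the filter, 342 and 162 with a spike-in factor, 217 and 27 in a fit of 2 groups and 13664 and 24 under spike-in scaling. In the *Eed* KO stomach 785 and 131 became 371 and 390 with a spike-in factor and 15419 and 19 under spike-in scaling. Between the control organs 273 and 549 became 70 and 85 under spike-in scaling. Between the *Eed* KO organs 237 and 477 became 357 and 774 with the pool block, 129 and 268 with 2 groups and 20 and 95 under spike-in scaling, and in the interaction 31 and 44 ranged from 0 and 20 (spike-in scaling) to 171 and 179 (pool block). In the adult 1856 and 1088 became 1154 and 1321 under spike-in scaling. Leaving out 1 library gave 149 to 173 higher and 214 to 330 lower between the control organs, 60 to 338 and 11 to 28 in the *Eed* KO intestine (lowest without control replicate 1), 282 to 576 and 50 to 74 in the *Eed* KO stomach, 89 to 225 and 200 to 362 between the *Eed* KO organs, 7 to 45 and 17 to 57 in the interaction, and 1512 to 1838 and 787 to 1288 in the adult. A fit of 2 groups left *Pi16* out of the control organs and *Pi16* and *Dpt* out of the *Eed* KO intestine, since they did not pass its filter. At 3 to 49 counts per embryonic library, differences in *Dpt* within the intestine, *Pi16* and *Ackr4* were uncertain, and none was called in the main fit.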

Other observations

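Peaks at these genes also differed in number. Per 10 kb of gene and flank, *Pi16* had 1.95 peaks in the control intestine, 1.46 in the *Eed* KO intestine, 0.974 in the control stomach and 2.44 in the *Eed* KO stomach, where the median gene tested had 0.746 to 0.816. *Dpt* had 0.797, 0.532, 0.532 and 1.59 in the same order, from 2 to 6 peaks. These are values of 1 pooled list each, with no test.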
